A study of Mus musculus with 6 samples.

Results

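The genes described here are the axon guidance ligands and receptors of the mouse retina: the Eph receptors and ephrins, the semaphorins with their plexin and neuropilin receptors, the Slits and Robos, and the netrins and netrin-G proteins with the Unc5, Dcc and Neo1 receptors. They were chosen by symbol, and 72 of the 30042 genes in the deposited table carried a name of these families. A gene was kept when its highest value over the 6 libraries was at least 1 RPKM (a read density corrected for gene length and sequencing depth), which left 62 genes, 32 receptors and 30 ligands. Just inside that minimum were Efna1 with a highest value of 1.00 RPKM and Epha6 with 1.10 RPKM. Just outside were Sema3b with 0.898 RPKM and Robo4 with 0.695 RPKM. The other 8 left out were Epha1, Sema3c, Sema3d, Sema3g, Plxnb3, Slit3, Ntn1 and Ntn5, with highest values between 0.0774 RPKM (Plxnb3) and 0.520 RPKM (Ntn1).

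The title of the series concerns mice that lack thyroid hormone deiodinases, but every sample used here is wild type. The libraries hold messenger RNA of whole retina from mice of different ages. The labels give the strain of every sample as 129/Sv; C57/BL6J, and each of the 6 libraries stands for its own age, 1 of them embryonic (day 16.5, written E16.5) and 5 after birth (days 1, 3, 7, 14 and 28, written with P). The number of animals or retinas behind each library is not given in the labels. Since each age is a single library, ages were not tested against each other pair by pair.

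Guidance ligands are membrane-bound or secreted proteins that growing axons and dendrites meet on their way, and the receptors on the growth cone turn that contact into attraction, repulsion or adhesion. In the retina, ganglion cell axons use netrin and Dcc to leave through the optic disc, Slits and Robos to keep their course, and graded Eph receptors and ephrins to map their position onto the brain. Semaphorins and plexins are also known to confine the dendrites of amacrine, bipolar and ganglion cells to particular layers of the inner plexiform layer, and several of these genes act in blood vessels as well. These roles are background and were not measured here.

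The depth of each library, estimated from the spacing of low values, was lowest at P1 (12801500 reads) and P28 (12854000) and highest at P14 (28829500). The sample titles have 2 forms, 1 for E16.5, P1 and P28 and the other for P3, P7 and P14, and the libraries of the first form held 12801500 to 14493000 estimated reads against 23393000 to 28829500 for the second. What the title forms stand for is not given in the labels, and a difference of P3, P7 and P14 from both ends of the series cannot be told apart from a difference between the title forms. At these depths 1 RPKM in a gene model of 2 kb stands for between 25.6 and 57.7 reads, so that values near or below 1 RPKM carry the largest counting error. All 10 retina identity markers, such as Pax6 and Crx, were above 0 in every library. Markers of blood and muscle summed to 203 RPKM at E16.5 and to between 3.96 and 18.4 RPKM at the other ages, and markers of lens and cornea to 29.5 RPKM at E16.5, to 15.4 at P1, to between 1.16 and 2.44 at P3, P7 and P14 and to 27.1 in the P28 library. Genes at 5 RPKM or more at E16.5 and at or under 1% of that value at P14 numbered 64, and at P28 they stood at a median of 2.60% of their E16.5 value. They were picked by a low P14 value, so a P28 level above P14 is partly set by that choice. In whole tissue, fewer cells of a type and less RNA per cell cannot be told apart.

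A straight line was fitted to each gene across the 6 ages, as a slope of log2(RPKM + 1) per age step, and the slope was tested with limma and Benjamini-Hochberg adjustment over all 15272 genes that reached 1 RPKM. Of the 62 guidance genes 30 fell with age, 4 rose and 28 did not pass the test. Over all tested genes the share that fell was 29.9% and the share that rose was 15.2%, so the guidance genes held more falling and fewer rising genes than the table as a whole (48.4% and 6.45%). The median slope was -0.19 over the guidance genes and -0.06 over all tested genes. Of the receptors 18 of 32 fell and 2 rose, and of the ligands 12 of 30 fell and 2 rose. The scaling between libraries moved these numbers. Median-of-ratios rescaling put the median slope of all tested genes at 0.00039 and gave 22 guidance genes that fell and 5 that rose, against 3069 and 3325 over all tested genes. Setting all libraries to a common total, with the 50 highest genes left out of it, gave 18 and 5, against 2686 and 3223 over all tested genes, with median slopes of -0.12 and 0.01. Without P28 18 guidance genes fell, against 3303 of all tested genes, and 1 rose both without P1 (1723 of all) and without P14 (1544 of all). With a term for the title form 33 fell and 4 rose, against 4819 and 2414 of all tested genes.

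**Figure D1:**
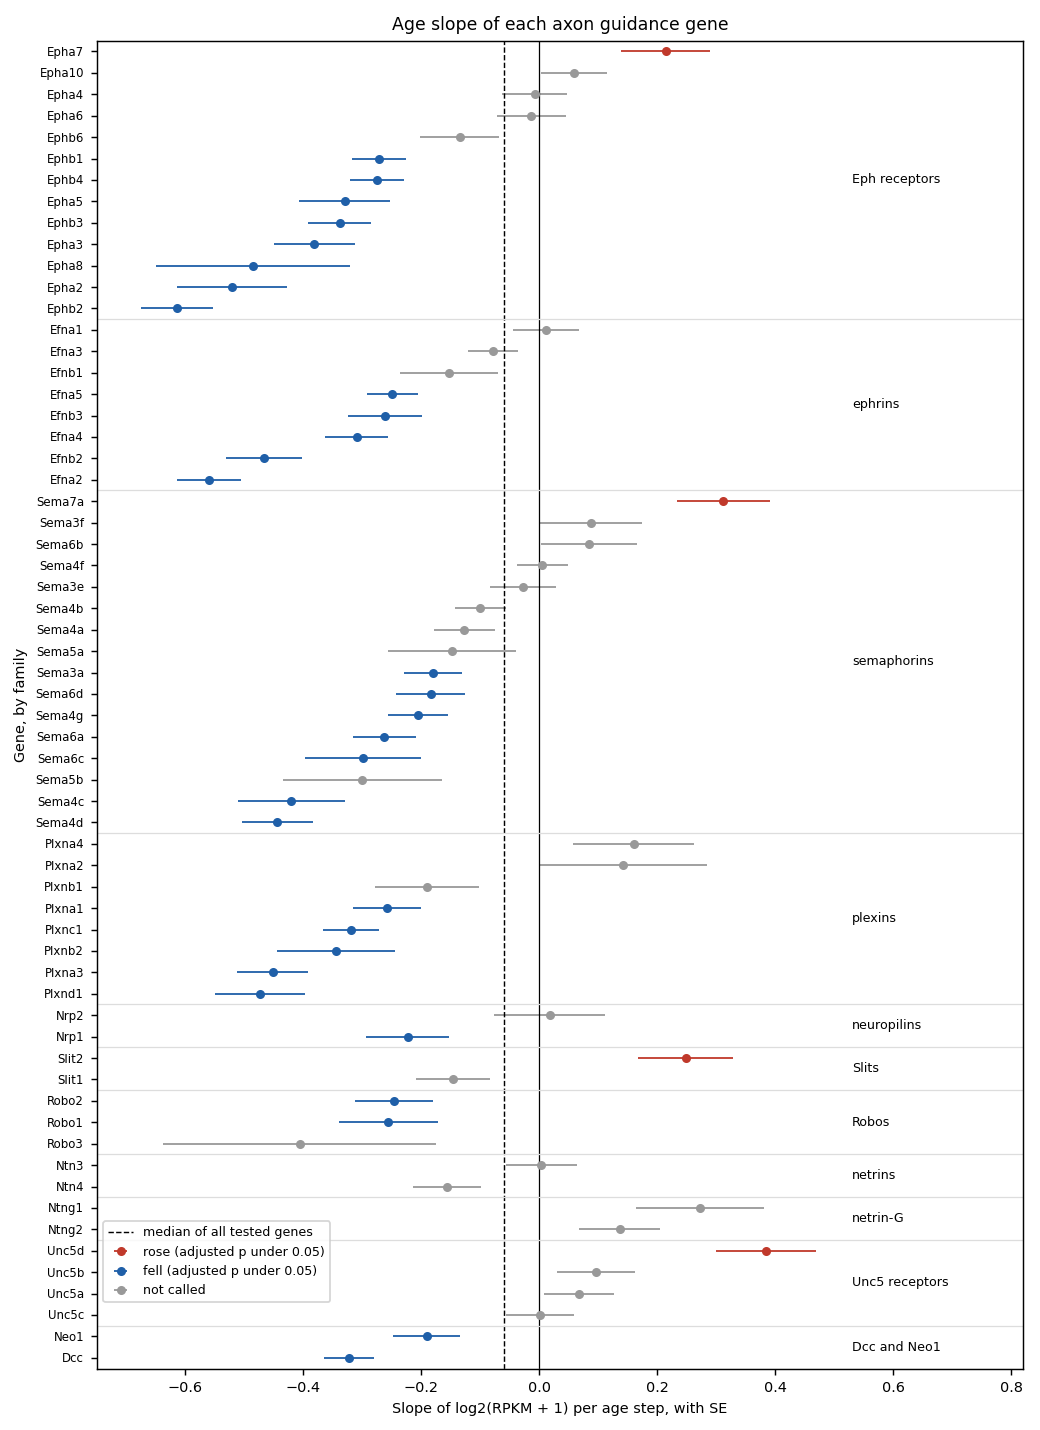
Slope of log2(RPKM + 1) per age step for each of the 62 genes, by family, with its standard error as a bar. Red genes rose and blue genes fell at an adjusted p under 0.05, grey genes did not pass, and the dashed line is the median of all tested genes (-0.06). Blue points fill most or all of the Eph, ephrin, plexin, Robo and Dcc and Neo1 blocks. The Unc5, Slit, netrin and netrin-G blocks have none.

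A set of 15 genes fell as deposited and under each of the alternatives tried in which they were tested. It held 6 Eph receptors (Epha2, Epha3, Ephb1, Ephb2, Ephb3 and Ephb4), 4 ephrins (Efna2, Efna4, Efna5 and Efnb2), Sema4d, the plexins Plxna3, Plxnc1 and Plxnd1, and the netrin receptor Dcc. The same count was not made over all tested genes, so whether 15 of 62 is unusual was not tested. Of the 62 genes 7 were lower at every step (Ephb1, Ephb2, Ephb4, Efna2, Sema4d, Plxnc1 and Dcc), against 5.95% of all tested genes, and 0 were higher at every step, against 2.67%. The remaining 15 that fell lost the call under at least 1 alternative, as did all 4 that rose. No guidance gene called as deposited changed the sign of its slope under any alternative.

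**Figure D2:**
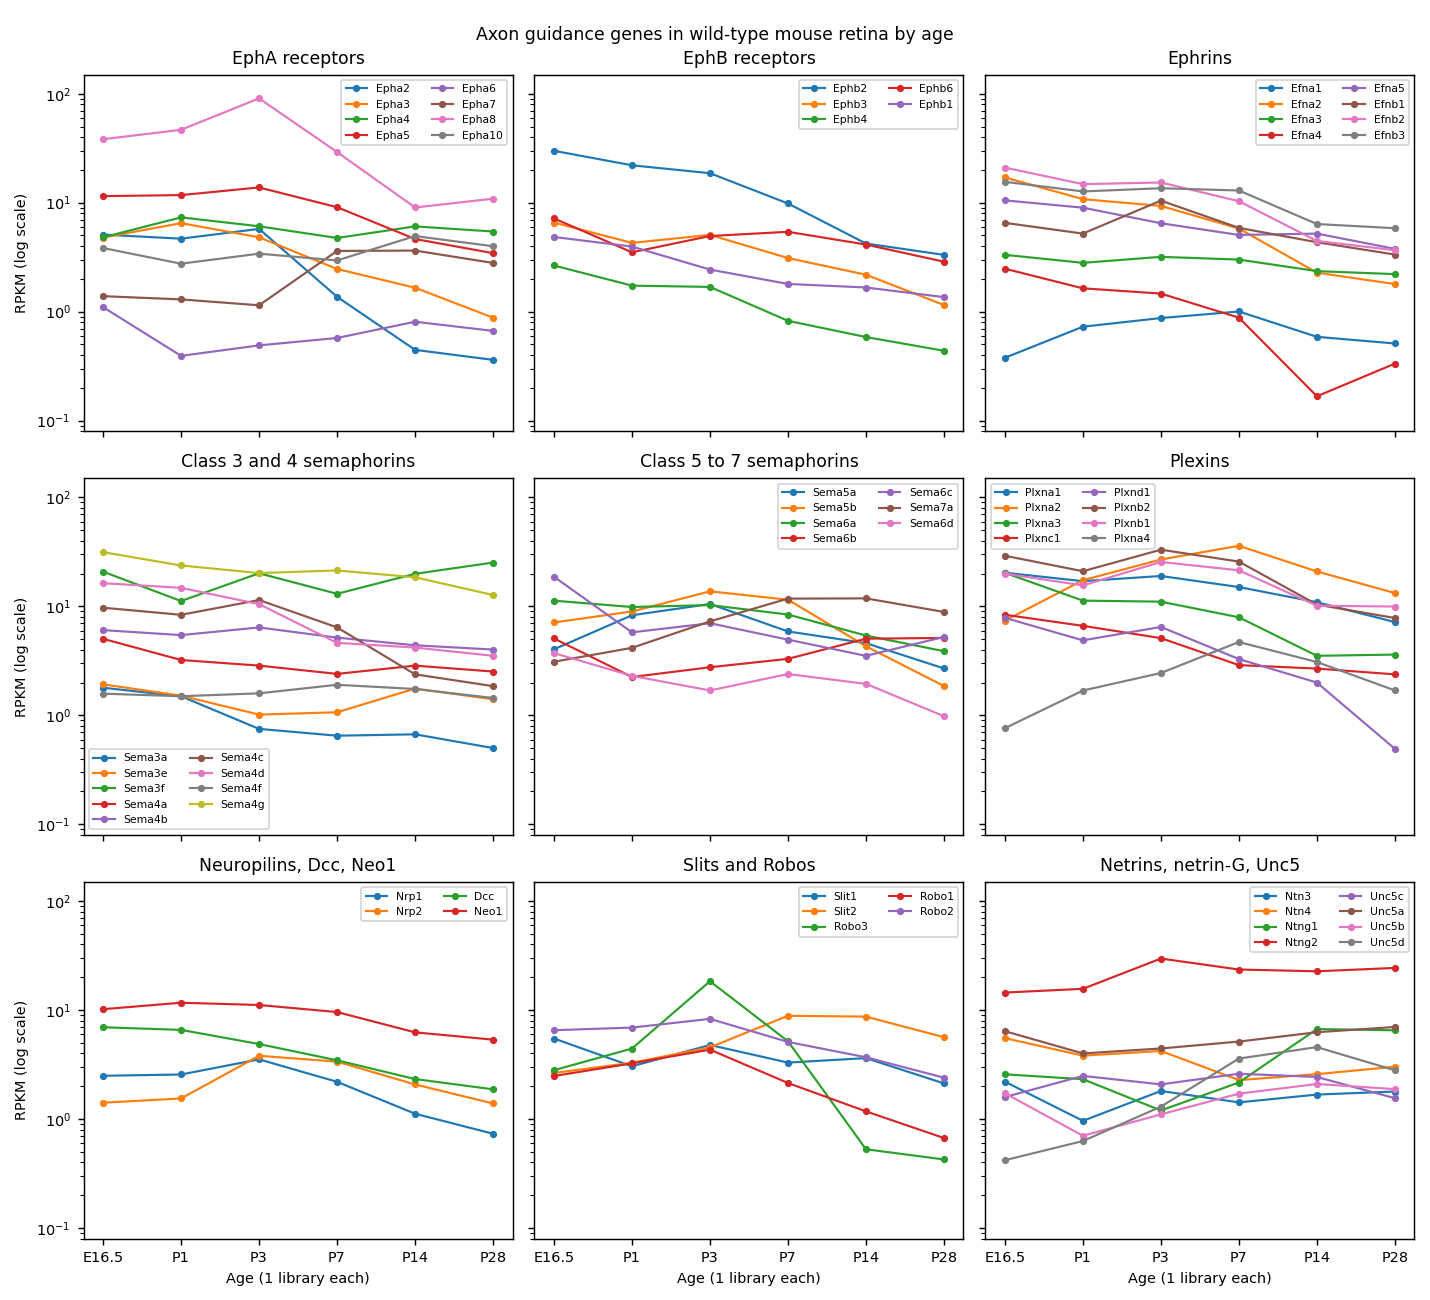
RPKM of each of the 62 genes at each of the 6 ages, on a log axis, in 9 panels by family. Each point is 1 library, so no error bar can be drawn. Most lines slope down after P3, and Epha8 (90.6 RPKM) and Robo3 (18.4 RPKM) stand out at P3.

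The Eph receptors are receptor tyrosine kinases that bind ephrins on neighbouring cells. Of 13 receptors 8 fell, 1 rose and 4 did not pass. The EphB class, which binds mainly ephrin-B ligands and is graded along the dorsal to ventral axis of the retina, fell in 4 of 5 cases. Ephb2 was at 29.9 RPKM (E16.5), 22.0 (P1), 18.6 (P3), 9.83 (P7), 4.22 (P14), then 3.32 (P28). Each library was lower than the one before it, and this was the steepest fall of all 62 genes (slope -0.61 ± 0.06, SE, adjusted p = 0.00149). Ephb1, the receptor that turns ventrotemporal axons away from the chiasm midline in mice, was at 4.84, 3.96, 2.43, 1.80, 1.67 and 1.36 RPKM over the same ages. It too was lower at every step (slope -0.27 ± 0.05, adjusted p = 0.00365), as was Ephb4, a receptor known from veins (0.437 RPKM at P28 against 2.65 at E16.5, slope -0.275). Ephb3 fell as well (1.15 RPKM at P28 against 6.57 at E16.5, slope -0.34). Ephb6, a member without kinase activity, did not pass and lay between 2.87 and 7.18 RPKM, and without P1 it was called as falling (slope -0.20, adjusted p = 0.0291).

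Among the EphA receptors, which bind mainly ephrin-A ligands and read the nasal to temporal axis, 4 of 8 fell and 1 rose. Epha8 reached the highest value of all 62 genes. Its values were 38.2 RPKM (E16.5), 46.7 (P1), 90.6 (P3), 29.2 (P7), 9.03 (P14), then 10.9 (P28). P3 stood above all other libraries, at 2.37 times the E16.5 value, and P14 and P28 were the lowest. The straight line therefore described it poorly: its fall (slope -0.49 ± 0.16, adjusted p = 0.0435) was not called without P1 (0.101), P14 (0.119) or P28 (0.156), nor under median-of-ratios rescaling (0.0723) or the common total (0.0946). Unfiltered, the fall was not called either (0.0761). Epha8 alone made up 31.4% of the summed Eph receptor level in the E16.5 library, 57.05% at P3 and 20.5% at P14. The other 12 receptors together summed to 83.7 RPKM in the E16.5 library, 68.2 at P3 and 26.7 in the P28 library.

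Epha2 stayed between 4.67 and 5.75 RPKM at E16.5, P1 and P3 and was at 1.37 at P7, 0.446 at P14 and 0.361 at P28. The drop lay after P3, and the slope was -0.52 ± 0.09 (adjusted p = 0.0044). Epha3 was at 4.78 RPKM (E16.5), 6.49 (P1), 4.81 (P3), 2.46 (P7), 1.66 (P14), then 0.881 (P28), a fall in every library after P1 (slope -0.38 ± 0.07, adjusted p = 0.00436). Epha5, an ephrin-A receptor of mapping ganglion cell axons, was at 11.5, 11.7, 13.8, 9.09, 4.64 and 3.44 RPKM in age order, and its fall (slope -0.33, adjusted p = 0.0117) was not called without P28 (0.0828). Epha7 went the other way. It was at 1.39 RPKM (E16.5), 1.30 (P1), 1.144 (P3), 3.61 (P7), 3.64 (P14), then 2.80 (P28), with all 3 later libraries above all 3 earlier ones. Its rise (slope 0.21 ± 0.07, adjusted p = 0.0487) was close to the threshold and was not called without E16.5 (0.092), P1 (0.121), P14 (0.136) or P28 (0.0508), nor with the title-form term (0.0729), on a log2 scale of age (0.0995) or unfiltered (0.0906). Epha4 (4.74 to 7.33 RPKM), Epha6 (0.393 to 1.10 RPKM) and Epha10 (2.76 to 4.94 RPKM), the last of which lacks kinase activity, did not pass.

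The ephrins, the ligands of these receptors, include the GPI-anchored ephrin-A and the transmembrane ephrin-B class. Of 8 ephrins 5 fell, 0 rose and 3 did not pass. Efna2 was at 17.1 RPKM (E16.5), 10.8 (P1), 9.34 (P3), 5.79 (P7), 2.28 (P14), then 1.79 (P28), lower at every step (slope -0.56 ± 0.05, adjusted p = 0.00148). Efnb2, which marks dorsal retina and the midline of the chiasm, was the highest ephrin at 21.0 RPKM at E16.5 and was at 14.8, 15.3, 10.3, 4.45 and 3.66 RPKM from P1 on (slope -0.47 ± 0.06, adjusted p = 0.00221). Efna5 was at 10.5 RPKM (E16.5), 8.999 (P1), 6.48 (P3), 5.06 (P7), 5.20 (P14), then 3.77 (P28), so most of its decline lay before P7 (slope -0.25, adjusted p = 0.00407). Efna4 was at 0.167 RPKM at P14 against 2.48 at E16.5 (slope -0.31, adjusted p = 0.00389). At P28 it was at 0.334 RPKM, and 2.60% of its E16.5 value would be 0.0644 RPKM.

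Efnb3 held between 12.7 and 15.5 RPKM through P7 and was at 6.37 at P14 and 5.83 at P28. Its fall (slope -0.26, adjusted p = 0.0128) was not called without P28 (0.0765) or with the common total (0.0683). Efnb1 was highest at P3 (10.4 RPKM, against 5.20 at P1 and 5.87 at P7) and did not pass, but was called as falling with the title-form term (slope -0.20, adjusted p = 0.0413). Nor did Efna3 (2.21 to 3.32 RPKM) or Efna1, a ligand known from endothelium (0.377 to 1.00 RPKM). Summed over each class, the EphB receptors were at 9.14 RPKM at P28 against 51.2 at E16.5 and the ephrin-B ligands at 12.8 against 43.1. The EphA receptors were at 28.5 RPKM at P28 against 70.7 at E16.5 and the ephrin-A ligands at 8.61 against 33.7. Receptor and ligand sums as deposited were thus lower at P28 in both classes. The sum over all genes of the table was also lower at P28 (133675 RPKM against 179379 at E16.5), and the class sums were not rescaled.

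Semaphorins are secreted, transmembrane or GPI-anchored cues that share the sema domain. Of 16 semaphorins 7 fell, 1 rose and 8 did not pass. Sema4d, a ligand of Plxnb1, was at 16.3 RPKM (E16.5), 14.8 (P1), 10.5 (P3), 4.62 (P7), 4.19 (P14), then 3.52 (P28). It was lower at every step, most between P3 and P7 (slope -0.44 ± 0.06, adjusted p = 0.00211). Sema4c was at 9.72, 8.37, 11.4, 6.41, 2.38 and 1.85 RPKM in age order, with P3 highest and the last 2 libraries lowest (slope -0.42 ± 0.09, adjusted p = 0.00863, and 0.0563 without P28). Sema4g reached the highest value of the semaphorins and was at 31.5 RPKM (E16.5), 23.7 (P1), 20.2 (P3), 21.4 (P7), 18.5 (P14), then 12.7 (P28). Its fall (slope -0.21, adjusted p = 0.0144) was not called without E16.5 (0.0646) or P28 (0.1), nor under either rescaling (0.0684 and 0.107). The other class 4 members, Sema4a, Sema4b and Sema4f, did not pass and stayed within 1.44 to 6.40 RPKM.

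The class 6 semaphorins are transmembrane ligands of the A plexins. Sema6a, a ligand of Plxna2 and Plxna4 with a part in keeping ON and OFF layers of the mouse inner plexiform layer apart, was at 11.3, 9.86, 10.3, 8.41, 5.40 and 3.88 RPKM in age order (slope -0.26 ± 0.05, adjusted p = 0.00693, and 0.0523 without P28). Sema6c was at 18.7 RPKM at E16.5 and between 3.52 and 7.01 RPKM in the other 5 libraries. Its call (adjusted p = 0.0402) rested largely on E16.5: without that library the slope was -0.11 (adjusted p = 0.312), and it was also lost without P3 (0.0544), P7 (0.0532) or P14 (0.113), under both rescalings (0.11 and 0.0963) and with the title-form term (0.0598). On a log2 scale of age (0.0957) and unfiltered (0.0688) the call was lost as well. Sema6d was at 0.982 RPKM at P28 against 3.73 at E16.5. Its call (adjusted p = 0.036) was lost without E16.5 (0.196), P1 (0.0533), P14 (0.0518) or P28 (0.212), under both rescalings (0.106 and 0.13) and unfiltered (0.072). Sema6b was at 5.07 RPKM (E16.5), 2.25 (P1), 2.76 (P3), 3.30 (P7), 5.05 (P14), then 5.13 (P28), a course that dipped and returned. It did not pass, and without E16.5 it was called as rising (slope 0.25, adjusted p = 0.0151).

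Sema7a, a GPI-anchored semaphorin that binds Plxnc1, was the only semaphorin that rose. It was at 3.10 RPKM (E16.5), 4.16 (P1), 7.28 (P3), 11.8 (P7), 11.8 (P14), then 8.89 (P28), with the last 3 libraries above the first 3 (slope 0.31 ± 0.08, adjusted p = 0.0155). The call was lost without E16.5 (0.105), P1 (0.0515) or P14 (0.0529), and on a log2 scale of age (0.0702). Its receptor Plxnc1 fell at every step, with 8.37 RPKM (E16.5), 6.63 (P1), 5.11 (P3), 2.89 (P7), 2.69 (P14), then 2.38 (P28) (slope -0.32 ± 0.05, adjusted p = 0.00259). Ligand and receptor thus had slopes of opposite sign, with Plxnc1 above Sema7a at E16.5 and P1 and below it from P3 on.

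Sema5a and Sema5b, which act through Plxna1 and Plxna3 to keep inner retinal neurites out of the outer retina in mice, were both highest at P3. Sema5a was at 4.04 RPKM (E16.5), 8.29 (P1), 10.5 (P3), 5.89 (P7), 4.60 (P14), then 2.69 (P28), and its P3 value was 2.60 times that at E16.5 and 3.90 times that at P28. Sema5b was at 7.12, 8.97, 13.7, 11.5, 4.30 and 1.86 RPKM in age order. Neither passed the straight-line test as deposited, and without E16.5 both were called as falling (adjusted p = 0.0168 for Sema5a and 0.0403 for Sema5b). Sema5b was also called as falling with the title-form term (slope -0.39, adjusted p = 0.00985) and with age in log2 days (0.0476). Among the secreted class 3 semaphorins, Sema3a had its highest values in the first libraries (1.79 RPKM at E16.5 and 1.496 at P1) and lay between 0.501 and 0.751 from P3 on. Its fall (adjusted p = 0.02) was not called without E16.5 (0.0987) or P1 (0.0566), nor under either rescaling (0.0526 and 0.0545) or on a log2 scale of age (0.0527). Sema3f, the most abundant of the class, was at 20.8, 11.2, 20.1, 13.0, 19.9 and 25.2 RPKM in age order with no passing slope, and Sema3e, the ligand of Plxnd1, was between 1.02 and 1.93 RPKM and did not pass.

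Plexins are the signalling receptors of semaphorins, and of 8 plexins 5 fell, 0 rose and 3 did not pass. Plxna3 was at 20.3 RPKM (E16.5), 11.3 (P1), 11.05 (P3), 7.94 (P7), 3.52 (P14), then 3.61 (P28) (slope -0.45 ± 0.06, adjusted p = 0.00203). Plxna1 was at 20.4, 17.0, 19.004, 15.0, 10.9 and 7.17 RPKM in age order (slope -0.26, adjusted p = 0.00961), and its fall was not called without P28 (0.0748) or with the common total (0.0618). Plxnd1, the receptor of Sema3e on endothelial cells, had the steepest slope of the plexins (-0.47 ± 0.08, adjusted p = 0.00328). It was at 7.85 RPKM (E16.5), 4.88 (P1), 6.47 (P3), 3.28 (P7), 2.00 (P14), then 0.493 (P28), so that the last library was the lowest by far. The 11 endothelial and pericyte markers summed to 40.0 RPKM (E16.5), 61.4 (P1), 62.3 (P3), 56.9 (P7), 66.0 (P14), then 28.6 (P28). The sum did not stand for a course shared by its markers. Kdr alone made up 29.4 RPKM of the E16.5 sum and 52.6 RPKM of the P3 sum. Only Kdr and Acta2 were lower in the P14 library than in the E16.5 library, and the other markers were higher. Cdh5 was at 0.0866 RPKM (E16.5) and 2.09 (P14), Pecam1 at 0.0684 and 1.17, and Tie1 at 0.0504 and 1.11. All 11 markers were above 0 in every library and 8 reached 1 RPKM. Of these 8 markers 2 rose and 0 fell, and the part of vessel content in the Plxnd1 and Ephb4 values was not tested.

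Plxna2 and Plxna4 followed a different course and were highest at P7. Plxna2 was at 7.40 RPKM (E16.5), 17.4 (P1), 26.9 (P3), 36.0 (P7), 20.9 (P14), then 13.3 (P28), the highest value of any plexin being that at P7. Plxna4 was at 0.763, 1.69, 2.45, 4.71, 3.09 and 1.69 RPKM over the same ages. Both were higher in each library up to P7 and lower in each one after it, with P7 at 4.86 times the E16.5 value for Plxna2 and 6.17 times for Plxna4. Neither passed the straight-line test (adjusted p = 0.437 and 0.236), and without P28 Plxna4 was called as rising (slope 0.35, adjusted p = 0.0267). Their partner ligand Sema6a was lower at P7 (8.41 RPKM) than at E16.5 (11.3 RPKM).

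The B plexins, receptors of class 4 semaphorins, were highest at P3. Plxnb2 was at 29.1 RPKM (E16.5), 21.0 (P1), 33.1 (P3), 25.8 (P7), 10.4 (P14), then 7.82 (P28). Its fall (slope -0.345 ± 0.10, adjusted p = 0.0256) was not called without E16.5 (0.0507), P14 (0.0789) or P28 (0.167), or with the common total (0.0842). Plxnb1 was at 19.97, 15.6, 25.6, 21.4, 10.1 and 9.96 RPKM in age order, with the same dip at P1. It did not pass, but was called as falling with the title-form term (slope -0.23, adjusted p = 0.0415). The neuropilins, co-receptors for class 3 semaphorins and for VEGF, were also highest at P3, Nrp1 at 3.53 RPKM and Nrp2 at 3.80. Nrp2 was at 1.41 RPKM (E16.5), 1.54 (P1), 3.80 (P3), 3.36 (P7), 2.08 (P14), then 1.39 (P28), and did not pass. Nrp1 was at 0.733 RPKM at P28 against 2.49 at E16.5. Its fall (adjusted p = 0.035) was lost without P1 (0.0744), P14 (0.0996) or P28 (0.21), under both rescalings (0.0635 and 0.117) and unfiltered (0.0692).

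Slits are secreted repellents read by Robo receptors. Slit2 rose, with 2.64 RPKM (E16.5), 3.28 (P1), 4.55 (P3), 8.86 (P7), 8.70 (P14), then 5.64 (P28) (slope 0.25 ± 0.08, adjusted p = 0.0387). The 3 later libraries were above the 3 earlier ones. The call was lost without E16.5 (0.185), P1 (0.104), P3 (0.0557) or P14 (0.113). It was also lost on a log2 scale of age (0.128) and unfiltered (0.0656). Slit1 lay between 2.12 and 5.48 RPKM, highest at E16.5, and did not pass, although it was called as falling without P1 (adjusted p = 0.0342) and with the title-form term (0.0383). Of the 3 Robos 2 fell. Robo2, the Robo best known from ganglion cell axons, was at 6.53, 6.90, 8.30, 5.10, 3.69 and 2.40 RPKM in age order (slope -0.25, adjusted p = 0.0196), a call lost without P1 (0.0518), P14 (0.0582) or P28 (0.143) and with the common total (0.0959). Robo1 was highest at P3 with 4.33 RPKM and stood at 0.669 at P28 against 2.48 at E16.5 (slope -0.26, adjusted p = 0.0397). That call was lost without P1 (0.0994), P14 (0.105) or P28 (0.234), under both rescalings (0.0686 and 0.112) and unfiltered (0.076).

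Robo3, which in the hindbrain and spinal cord lets commissural axons cross the midline, had the widest range of the 62 genes. It was at 2.81 RPKM (E16.5), 4.43 (P1), 18.4 (P3), 5.17 (P7), 0.528 (P14), then 0.426 (P28). Its P3 value was 6.55 times that at E16.5 and 43.2 times that at P28. At P3 it was above Robo1 and Robo2 together (12.6 RPKM), and at P14 and P28 it was below each of them. It passed neither the test of a straight line (adjusted p = 0.181) nor that of curvature (adjusted p = 0.211, unadjusted p = 0.0228), and this peak rests on 1 library.

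The upstream sequences of Robo3 and Epha8, the genes with the highest relative and absolute peak at P3, are shown beside that of Efna2, which was lower at every step. They come from RefSeq promoter sequences of build GRCm38.p6, while the submitters' processing notes name mm9 for the deposited values, and each run is the 250 bases before the annotated start, 5′ to 3′ on the strand of the gene. Robo3 lies at chr9:37433176-37433425 on the minus strand, Epha8 at chr4:136956817-136957066 on the minus strand and Efna2 at chr10:80179232-80179481 on the plus strand. Capitals mark matches, on either strand, to 5 short motifs: TAATCC (the core bound by Crx and Otx2), TAATTA (a homeodomain core), CAGCTG (an E-box), GGGCGG (a GC box) and TATAAA (the core bound by the TATA-binding protein). Neighbouring matches that overlap run together.
Robo3: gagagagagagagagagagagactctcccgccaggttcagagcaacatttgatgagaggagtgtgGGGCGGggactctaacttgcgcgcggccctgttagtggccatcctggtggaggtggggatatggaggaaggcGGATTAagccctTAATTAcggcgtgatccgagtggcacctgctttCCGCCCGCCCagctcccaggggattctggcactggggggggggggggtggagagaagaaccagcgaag
Epha8: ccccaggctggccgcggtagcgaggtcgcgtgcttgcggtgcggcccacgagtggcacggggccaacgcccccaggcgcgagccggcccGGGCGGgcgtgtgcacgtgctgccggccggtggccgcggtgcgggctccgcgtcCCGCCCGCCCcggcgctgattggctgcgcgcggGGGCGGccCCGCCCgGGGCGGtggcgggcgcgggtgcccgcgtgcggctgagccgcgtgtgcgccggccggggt
Efna2: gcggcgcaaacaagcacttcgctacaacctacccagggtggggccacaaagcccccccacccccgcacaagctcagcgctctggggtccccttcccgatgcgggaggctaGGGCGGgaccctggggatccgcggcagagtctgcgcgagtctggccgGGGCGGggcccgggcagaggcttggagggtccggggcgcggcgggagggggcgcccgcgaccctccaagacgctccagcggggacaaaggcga
The Robo3 run held 1 TAATCC match (as GGATTA), 1 TAATTA match and 3 GC boxes, the Epha8 run 6 GC boxes and the Efna2 run 2 GC boxes. A promoter was listed for 54 of the 62 guidance genes, and only the first one listed for each gene was searched. Among these Robo3 was the only one with TAATCC. That motif occurred in 6.25% of all 32851 promoters of the table, which cover 27025 genes, and in 5.22% of the first promoters listed for tested genes. TAATTA occurred in 3 of the 54 (Efna1, Epha5 and Robo3), against 4.84% and 2.19%. The GC box occurred in 41 of the 54 (75.9%), against 32.7% and 60.1%. CAGCTG was found in 5 of the 54, against 13.0% and 11.8%, and TATAAA in 2 (Efnb2 and Slit2), against 12.4% and 6.10%. A match describes letters in these windows and was not tied to binding.

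Netrins draw axons through Dcc and repel them through Unc5 receptors. Dcc was at 6.95 RPKM (E16.5), 6.58 (P1), 4.88 (P3), 3.46 (P7), 2.33 (P14), then 1.87 (P28), lower in each library than in the one before (slope -0.32 ± 0.04, adjusted p = 0.00203). Neo1, its relative that also binds RGM proteins, was at 10.2, 11.7, 11.1, 9.59, 6.24 and 5.35 RPKM in age order (slope -0.19, adjusted p = 0.0268), a call lost without P1 (0.0698), P14 (0.087) or P28 (0.157) and under both rescalings (0.077 and 0.189). The Unc5 receptors contrasted with Dcc: 0 of 4 fell, 1 rose and 3 did not pass. Unc5d, which also binds the adhesion protein Flrt2, was at 0.419 RPKM (E16.5), 0.628 (P1), 1.30 (P3), 3.59 (P7), 4.57 (P14), then 2.80 (P28). It had the steepest rise of the 62 genes (slope 0.38 ± 0.08, adjusted p = 0.00935), with P14 at 10.9 times E16.5, and it was not called without E16.5 (slope 0.37, adjusted p = 0.0522).

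Unc5a and Unc5b had the same shape, a dip at P1 followed by higher values. Unc5a was at 6.40 RPKM (E16.5), 3.998 (P1), 4.44 (P3), 5.14 (P7), 6.26 (P14), then 6.996 (P28), and Unc5b was between 0.702 RPKM (P1) and 2.10 RPKM (P14). Neither passed, and without E16.5 both were called as rising (adjusted p = 0.0278 for Unc5a and 0.0392 for Unc5b). Unc5c, between 1.55 and 2.60 RPKM, did not pass. Of the netrins Ntn3 (0.962 to 2.20 RPKM) and Ntn4, a laminin-binding member of basement membranes (2.27 to 5.53 RPKM), did not pass, and Ntn4 was called as falling without P28 (adjusted p = 0.0418). The netrin-G proteins, GPI-anchored and bound by synaptic NGL proteins rather than by Dcc, did not pass either. Ntng1 was at 2.57 RPKM (E16.5), 2.32 (P1), 1.198 (P3), 2.16 (P7), 6.69 (P14), then 6.52 (P28). The last 2 libraries stood above the rest, and it was called as rising without E16.5 (adjusted p = 0.0453), with the common total (0.0338) and with the title-form term (0.0336). Ntng2 was at 14.5, 15.7, 29.7, 23.6, 22.7 and 24.4 RPKM in age order, with every library from P3 on above the first 2, and was called as rising under median-of-ratios rescaling (adjusted p = 0.0295).

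The age of the highest value separated the guidance genes further. It was E16.5 for 28 of the 62 genes (45.2%, against 28.5% of all tested genes), P1 for 3 (against 20.5%) and P3 for 16 (25.8%, against 12.5%). It was P7 for 6 genes (against 12%), P14 for 6 (against 12.7%) and P28 for 3 (Sema3f, Sema6b and Unc5a, against 13.7%). The receptors highest at P3 were Epha2, Epha5, Epha8, Nrp1, Nrp2, Plxnb1, Plxnb2, Robo1, Robo2 and Robo3. The ligands highest there were Efnb1, Ntng2, Sema4b, Sema4c, Sema5a and Sema5b. With median-of-ratios rescaling 15 genes were highest at P3 and 26 at E16.5, against 1457 and 3555 of all tested genes, and with the common total 23 and 18, against 2698 and 2484. By a rule chosen after the values were seen, P3 lay above both P1 and P7 for 29 of the 62 genes, against 22.4% of all tested genes. Each of these ages is 1 library, so that an age and its library cannot be told apart.

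**Figure D3:**
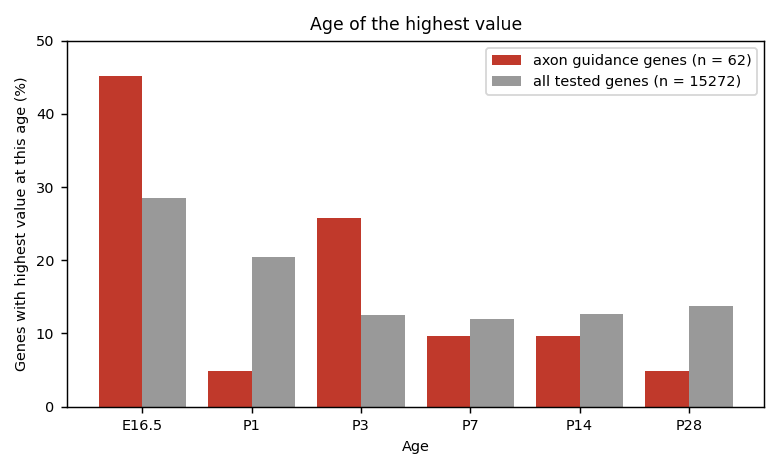
Share of genes whose highest RPKM fell at each age, for the 62 axon guidance genes (red) and all 15272 tested genes (grey), in percent. The guidance genes exceed the table at E16.5 (45.2% against 28.5%) and P3 (25.8% against 12.5%) and stay below it at P1, P7, P14 and P28.

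A peak in the middle of the series, at least 2 times the value at both E16.5 and P28, was found in 6 genes: Epha8, Nrp2, Robo3 and Sema5a with the peak at P3, and Plxna2 and Plxna4 at P7. Of all tested genes 4.18% met this rule, and 1.43% met it with the peak at P3. P3 and P7 carry a title form that neither E16.5 nor P28 has, so the part of the title form in these peaks cannot be told apart from age. Each of the 6 also met it under median-of-ratios rescaling, and Robo1 and Sema5b joined them with the common total. The test of curvature with limma called 0 of the 62 genes and 0 of all 15272. At an unadjusted p under 0.05 it named 18 of the 62, of which 15 were higher in the middle. Of all 15272 tested genes it named 2858 (18.7%), of which 1652 were higher in the middle. The smallest values among the guidance genes were those of Plxna2 (unadjusted p = 0.000121, adjusted p = 0.0822) and Sema5b (unadjusted p = 0.000533, adjusted p = 0.12).

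**Figure D4:**
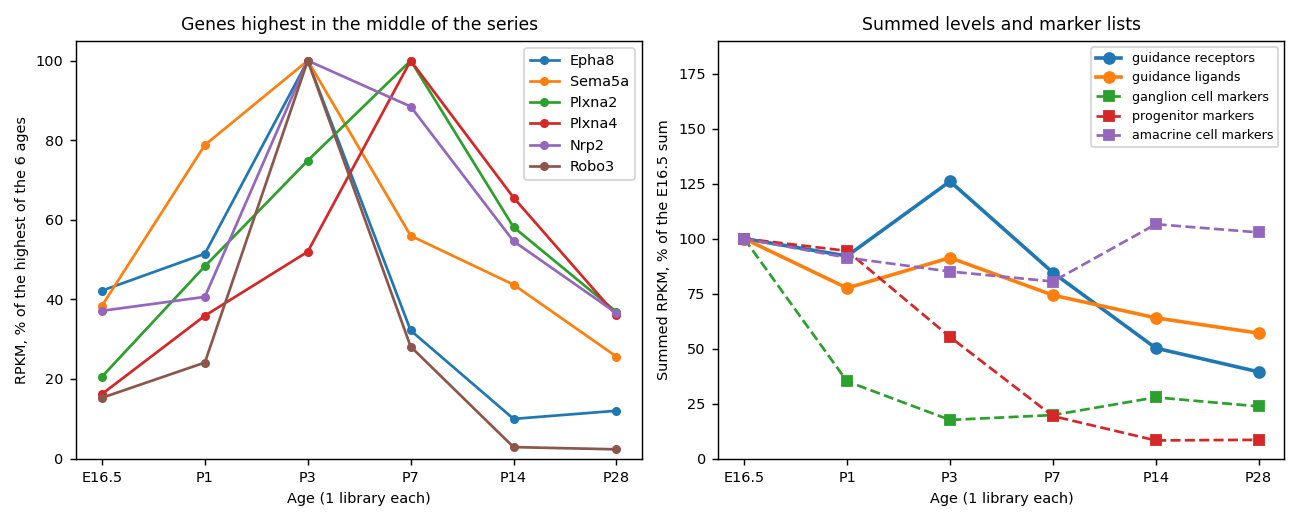
Left, RPKM of the 6 genes with a middle peak as a percent of each gene's highest value, at P3 for Epha8, Nrp2, Robo3 and Sema5a and at P7 for Plxna2 and Plxna4. Right, summed RPKM of the 32 guidance receptors, the 30 ligands and 3 marker lists as a percent of their E16.5 sum. The receptor sum is highest at P3 (352 RPKM against 279 at E16.5). The ganglion cell marker sum is lowest there, though its markers differ in course.

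Seen step by step, few guidance genes moved by 1 log2 unit or more between neighbouring ages. Between P14 and P7 there were 9 such genes lower at P14 (Epha8, Ephb2, Efna2, Efnb2, Sema4c, Sema5b, Plxnb1, Plxnb2 and Robo3), against 2.4% of all tested genes, and 1 higher (Ntng1), against 2.92%. At P7 against P3, 4 were lower (Epha2, Epha8, Sema4d and Robo3, against 3.54%) and Epha7 was higher (against 2.36%). At P1 against E16.5 Sema6c was lower (against 2.23%) and Plxna2 higher (against 1.05%), and at P3 against P1 Robo3 was higher (against 1.94%). At P28 against P14 only Plxnd1 was lower (against 0.53%) and 0 were higher (against 1.19%). No guidance gene was lower by that much at P3 against P1 (against 3.52%). Between the ends of the series, P28 minus E16.5, 32 genes were lower by 1 log2 unit or more, against 21.9% of all tested genes, and 3 were higher (Sema7a, Ntng1 and Unc5d), against 11.3%. The common total gave 20 lower and 6 higher, against 2063 and 2519 of all tested genes, and median-of-ratios rescaling 24 and 6, against 2269 and 2443.

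The summed level of the 32 receptors was 279 RPKM (E16.5), 257 (P1), 352 (P3), 236 (P7), 140 (P14), then 110 (P28). For the 30 ligands it was 257, 200, 235, 191, 164.7 and 147 RPKM over the same ages. The receptor sum was therefore 1.497 times the ligand sum at P3 and 0.750 times at P28. These sums are of deposited values and were not rescaled. Over all genes of the table the values summed to 179379 RPKM (E16.5), 161740 (P1), 138396 (P3), 136500 (P7), 134072 (P14), then 133675 (P28). The part of this drop in the receptor and ligand sums was not tested. At P3 Epha8 supplied 90.6 RPKM of the receptor sum and Robo3 18.4 RPKM.

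The summed level of 15 ganglion cell markers was 1324 RPKM (E16.5), 465 (P1), 232 (P3), 262 (P7), 368 (P14), then 314 (P28), and 9 of them fell and 2 rose. That of 10 progenitor markers was 1407, 1329, 778, 272, 116 and 120 RPKM, and 9 of them fell. Both sums were lower at P28 than at E16.5, as were the guidance genes that fell, and the part of either cell type in these values was not tested. The ganglion cell sum was lowest at P3, but its markers did not share that course. From P3 to P14 Nefl, Nefm, Nefh, Thy1, Sncg, Isl1 and Slc17a6 went up and the other markers of the list went down. Nefl was at 48.1 RPKM at P3 and 103 at P14, and Gap43 at 46.8 and 16.4. The sum of the 9 amacrine cell markers found in the table stayed between 93.0 and 123 RPKM, but of the 8 tested 4 rose and 3 fell. Ptf1a was at 0.102 RPKM at P28 against 24.8 at E16.5, and Slc6a9 at 34.9 against 3.62. The sum of 12 photoreceptor markers was higher in each library than in the one before, with 8109 RPKM at P28 against 60.0 at E16.5.

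Other genes of guidance were described with 3 further lists. Of 36 tested co-factors and other cues 10 fell and 3 rose (27.8% and 8.33%, against 29.9% and 15.2% of all tested genes), so the share that fell was near that of the whole table. The steepest falls were those of the chemokine receptor Cxcr4 (52.6 RPKM (E16.5), 51.2 (P1), 29.6 (P3), 6.79 (P7), 1.63 (P14), then 1.72 (P28), slope -1.04), of Islr2 (slope -0.93) and of the glypican Gpc1 (slope -0.36). The rises were those of the adhesion molecule Dscaml1 (1.95 RPKM (E16.5), 1.28 (P1), 4.52 (P3), 17.8 (P7), 20.2 (P14), then 17.2 (P28), slope 0.70), of Nfasc (slope 0.39) and of Omg (slope 0.38). Nfasc was not called without P1 (0.0592), P14 (0.0562) or P28 (0.0671), nor Omg without E16.5 (0.0821) or P14 (0.0562).

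Of 48 tested intracellular transducers, which link the receptors to actin and microtubules, 27 fell and 5 rose. The growth cone protein Gap43, also in the ganglion cell list, was at 13.9 RPKM at P28 against 365 at E16.5 (slope -0.91), the tubulin-binding Stmn2 at 8.41 against 83.7 RPKM (slope -0.58), and Mical1, the actin-oxidising enzyme that binds plexins, at 0.411 against 6.67 RPKM (slope -0.53). Among the genes that rose were Cap2 (slope 0.37) and Farp2, a plexin-binding exchange factor (slope 0.32), and Farp2 was not called without E16.5 (adjusted p = 0.0501). Of 18 tested factors that pattern the axes of the retina, upstream of Eph and ephrin gradients, 16 fell and 0 rose, with the steepest slopes for Cyp26a1 (-0.78), Aldh1a3 (-0.76) and Hmx1 (-0.68). The share that fell was thus 88.9% in the patterning list, 56.2% among the transducers and 27.8% among the co-factors and other cues, against 48.4% of the guidance genes and 29.9% of all tested genes.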

How the data were processed

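Values start from the authors' deposited table of RPKM, per the file headers, with 1 column for each of 6 libraries and 0 sample columns left unused. Per the labels' protocols, RNA was extracted with Trizol, mRNA was purified on beads, and fragmented double-stranded cDNA was built into libraries with a ChIP DNA kit. Build mm9 and bcl2fastq 2.17.1.14 are named in the submitters' processing notes. No source used here names the aligner, counter, annotation or strand, so overlapping and antisense genes cannot be told apart.

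Genes with a highest value of at least 1 RPKM were tested as log2(RPKM + 1), a scale that understates changes of low genes, with limma 3.58.1 in R 4.3.3 (linear slope over age order 1 to 6, trend=TRUE, two-sided, 4 residual degrees of freedom; curvature as the quadratic term, with 3). The threshold was an adjusted p of 0.05. The p-values rest on the scatter of single libraries around the fitted course and hold no spread among retinas of 1 age, and the code was tested on simulated data. Depth came from the spacing of values under 0.3 RPKM with GENCODE lengths of single-transcript genes, where 66.5% to 69.1% were whole reads within 0.05, too few for a test on counts. Genes, lists and the rule for named genes (per family, the steepest called in each direction, the highest, any called for curvature and those with a middle peak; for other lists, up to 3 steepest per direction) were chosen with earlier results of these data known. Alternatives changed the pseudocount, filter, scaling, age scale, title form or library set.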

Additional observations from a re-analysis of the deposited data

How the results depend on the processing

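With 1 library per age, no comparison here has replicate error, and at 12801500 to 28829500 estimated reads genes under 1 RPKM were left out for low counts. Without a filter 2 guidance genes rose (2887 of all genes tested then), and with a minimum of 5 RPKM 2 rose (1403 of all tested genes). With age in log2 days 1 rose (1949 of all tested genes), and 1 gene of the whole table passed for curvature. The common total without the 50 highest genes left 18 guidance genes that fell (2686 of all tested genes), 20 lower at P28 than at E16.5 (2063 of all) and 6 higher (2519 of all). It also put 18 highest at E16.5 (2484 of all) and 5 at P28 (2848 of all). Median-of-ratios rescaling gave 6 higher at P28 than at E16.5 (2443 of all), 3 highest at P7 (1327 of all) and 6 at P28 (3415 of all). A pseudocount of 0.1 gave 5 higher at P28 (2540 of all). Of the genes that reached 5 RPKM, 1143 were higher at P28. Fewer genes were tested at the higher minimum, and p was adjusted over those genes alone. The part of each in the counts of calls was not tested, nor was the cause for the other alternatives. Leaving out each library in turn gave 18 to 29 guidance genes that fell and 1 to 4 that rose, against 2945 to 4248 and 1544 to 2179 of all tested genes. The rising genes were not always the same. Without E16.5 they were Ntng1, Sema6b, Unc5a and Unc5b, and none of those called as deposited was among them. Subtracting the P28 trace, an alternative chosen after seeing the data along with the scaling of peak ages, left 31 that fell and 4 that rose, against 4838 and 2314 of all tested genes. No paired analysis was possible because each age has 1 library, and the number in the titles of E16.5, P1 and P28 is the same for all 3 and marks no pairs.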
